A study of Homo sapiens with 14 samples.

Results

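The mRNAs described here are listed as mRNAs with a terminal oligopyrimidine (TOP) tract at their 5′ end that encode proteins other than ribosomal proteins. They were chosen as a named list of 10 genes, out of 58434 gene symbols in the count table: EEF1A1, EEF1B2, EEF1D, EEF1G, EEF2, TPT1, PABPC1, NPM1, HNRNPA1 and NAP1L1. Their levels were followed in 14 RNA-seq libraries of MDA-MB-231, a triple-negative breast cancer cell line, in which a stably integrated, doxycycline-inducible short hairpin RNA was either non-silencing (shNSi) or directed against DAP5 (shDAP5). DAP5, encoded by EIF4G2, is a relative of the initiation scaffold eIF4G1 that lacks its eIF4E-binding region. Every culture, the control included, received 1 µg/ml doxycycline for 6 days. From 2 shNSi and 2 shDAP5 cultures, RNA was sequenced from the total cytoplasmic lysate, from light polysomes (mRNAs carrying few ribosomes) and from heavy polysomes (well-translated mRNAs), and a moderate polysome pool was sequenced from the shNSi cultures as well. Each arm is a selected and sorted cell population, so that an effect of the hairpin and a difference between the populations cannot be told apart.

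A TOP mRNA begins with a C at the cap, followed without interruption by a short run of pyrimidines. The tract is a known target of growth control: when the kinase mTOR is active these mRNAs are loaded onto polysomes, and when it is inactive the RNA-binding protein LARP1 holds the capped tract and keeps them off ribosomes. Besides the ribosomal proteins, the class contains the elongation factors eEF1A and eEF2, the subunits of the eEF1B exchange factor, the poly(A)-binding protein and several chaperones and RNA-binding proteins.

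Most members examined had a TOP tract at an annotated start. In RefSeq (GRCh38.p14), start windows of 30 bases were read for 7 of the 10 genes, and they are shown because the tract is what defines the group; 10 bases lie before the annotated start, and the capitals mark the unbroken pyrimidine run that begins at it.
EEF1A1, chr6:73521013-73521042, minus strand: cgtgaacgttCTTTTTCgcaacgggtttgc
EEF2, chr19:3985444-3985473, minus strand: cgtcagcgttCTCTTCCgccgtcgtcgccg
EEF1B2, chr2:206159885-206159914, plus strand: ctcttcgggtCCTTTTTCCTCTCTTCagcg
TPT1, chr13:45341164-45341193, minus strand: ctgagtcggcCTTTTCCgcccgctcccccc
NPM1, chr5:171387839-171387868, plus strand: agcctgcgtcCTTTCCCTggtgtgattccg
NAP1L1, chr12:76084666-76084695, minus strand: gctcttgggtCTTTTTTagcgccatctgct
EEF1G, chr11:62573872-62573901, minus strand: cgggcggcttactttgcggcagcgccgaga
A start counted as TOP-like when its first base was C and at least 4 pyrimidines followed. It was TOP-like in 6 of these 7 genes (85.7%). The run was 7 bases long in EEF1A1, EEF2, TPT1 and NAP1L1, 8 in NPM1 and 16 in EEF1B2. The annotated EEF1G start opens with A, which a short pyrimidine stretch follows. EEF1B2 and NPM1 have another annotated start each, at chr2:206159599-206159628 and chr5:171387106-171387135, which begin with A and G. Of 27305 genes with an annotated start, 5.14% had a TOP-like one, as did 74.6% of 63 ribosomal protein genes; counted by start, the shares were 66.7% of 9 for the members, 4.07% of 35116 for all and 60.3% of 78 for ribosomal proteins. The starts of HNRNPA1, EEF1D and PABPC1 were not examined here.

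Some facts of the whole series bear on every value below. The libraries held between 25899838 and 30795910 counted reads, and the 10 mRNAs together took from 0.944% to 2.26% of them. EIF4G2 stood at 1392 and 1359 CPM (read counts scaled to a common library total) in shNSi total mRNA and at 526 and 730 CPM in shDAP5 total mRNA, a log2 change of -1.11 ± 0.18 (SE, n = 2 and 2, edgeR adjusted p = 0.0172). Of the markers of the cell line, VIM and CD44 were abundant, at no fewer than 24560 and 3378 counts, ERBB2, the gene of HER2, lay between 1186 and 2692 counts, while CDH1 reached at most 8 counts, ESR1 16, the blood cell marker PTPRC 7, and PGR was at 0 in every library. CD44 also differed between the arms, at 485 and 624 CPM in shNSi and 187 and 308 CPM in shDAP5 total mRNA (log2 change -1.14 ± 0.23, edgeR adjusted p = 0.0584), and in heavy polysome mRNA CD44 (-1.94 ± 0.39) and VIM (-1.35 ± 0.40) were called lower, 2 of 3 markers tested; the part of a difference between the populations in the results was not tested. The 2 shNSi cultures differed in their gradient pools: EEF1A1, for example, was at 2950 CPM in the moderate pool of culture 1 and at 8764 CPM in that of culture 2. The composition of the shNSi heavy libraries also stood apart, with normalization factors of 0.702 and 0.763 against 0.899 to 1.16 in the other 12, and ribosomal protein mRNAs at 3.54% and 3.71% of counts there against 7.18% and 10.2% in shDAP5 heavy libraries. The shDAP5 light libraries carry in their description the code used for the shNSi moderate pool, and the shDAP5 total libraries are titled as total polysome; titles were followed.

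The mRNA of EEF1G, a subunit of the eEF1B complex, was listed at 0 reads in all 14 libraries, although the gene encodes an abundant protein. In GENCODE v29 (GRCh38), 99.9% of its exonic bases are shared with the same-strand gene AP002990.1, and whether this set the count was not tested. The other 9 members were counted in every library and passed the filter on low counts in each comparison.

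Per kilobase of coding sequence, the level in shNSi total mRNA differed several-fold between members. EEF1A1 led with 4680 and 4704 CPM per kilobase, followed by TPT1 with 2768 and 2798, NPM1 with 2175 and 2377, and HNRNPA1 with 1090 and 1456. EEF1B2 (845 and 986), PABPC1 (882 and 708) and EEF2 (645 and 770) overlapped, each with the next. NAP1L1 lay lower, at 605 and 638 CPM per kilobase, and EEF1D at 313 and 395, where the value assumes the principal coding sequence of 1941 bases; the most frequent one among its 50 annotated coding transcripts has 843, which would put it at 720 and 910.

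**Figure D1:**
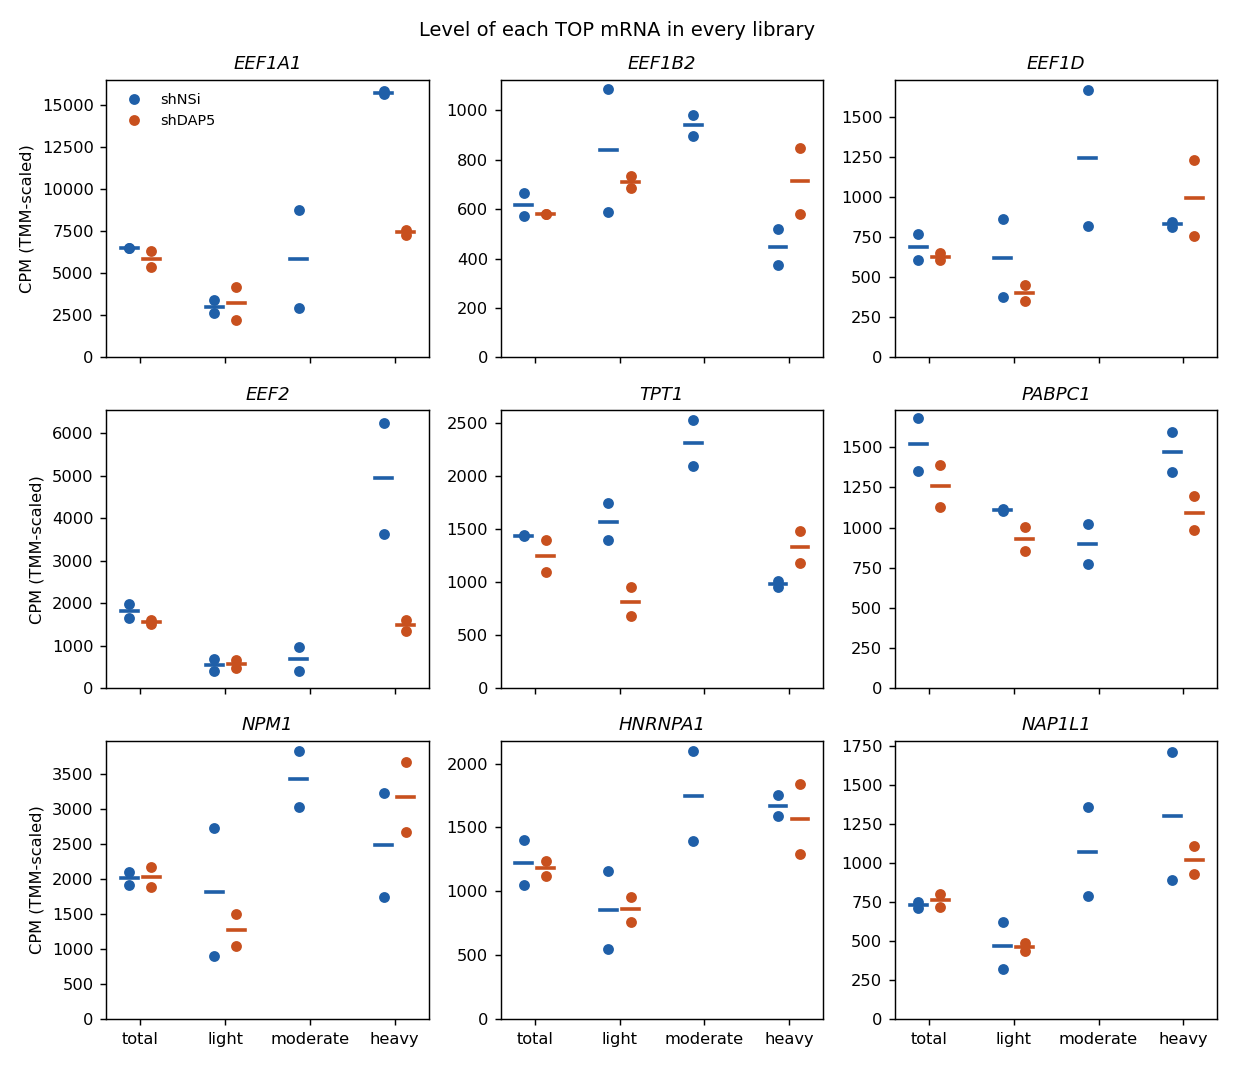
Level of the 9 counted TOP mRNAs in each of the 14 libraries (CPM, scaled by the trimmed mean of M-values; y axes start at 0 and differ between panels). Points are libraries, bars are means of 2 cultures, blue is shNSi and orange is shDAP5; the EEF2 and EEF1A1 points of shNSi heavy polysomes stand above all others of their panels.

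Total mRNA. The first comparison asks whether the hairpin altered the amount of these mRNAs. None of the 9 members passed the threshold (edgeR, adjusted p under 0.05), against a background of 0.354% of 14992 genes called in either direction; 1799 of all genes had an unadjusted p under 0.05, and DESeq2 and limma called 0 members too. Log2 changes ran from -0.25 ± 0.17 for PABPC1 to 0.08 ± 0.16 for NAP1L1 (SE, n = 2 and 2). EEF1A1, the factor that brings aminoacyl-tRNA to the ribosome, was at 6487 and 6520 CPM in shNSi cells and at 6356 and 5377 CPM in shDAP5 cells. EEF2, the factor that moves the ribosome along by a codon, was at 1661 and 1983 CPM against 1516 and 1611 CPM. For both, each shDAP5 library lay below each shNSi library, by less than the test could separate from the spread.

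Elongation GTPases in the gradient. In shNSi cells the mRNAs of the 2 elongation GTPases were concentrated in heavy polysomes. EEF2 was at 3627 and 6243 CPM in the heavy pool, at 402 and 974 CPM in the moderate pool and at 411 and 695 CPM in the light pool. Set against the total mRNA of the same culture, its heavy pool was higher by 1.27 ± 0.37 on the log2 scale (SE, edgeR adjusted p = 0.0167). Its moderate and light pools were lower than total mRNA, by a log2 change of -1.58 ± 0.37 (edgeR adjusted p = 0.0336) and -1.79 ± 0.37 (edgeR adjusted p = 0.00852). EEF1A1 was likewise highest in the heavy pool of each shNSi culture.

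EEF1A1 was at 15642 and 15836 CPM in shNSi heavy polysomes, its highest values in any library, and at 2642 and 3407 CPM in light polysomes. Its heavy pool exceeded total mRNA by 1.17 ± 0.44 (log2, SE, edgeR adjusted p = 0.0489), and its light pool stood at -1.14 ± 0.44 (edgeR adjusted p = 0.0878), which missed the threshold. EEF1A1 and EEF2 were the 2 of 9 members called higher in shNSi heavy polysomes than in total mRNA; 6 of 9 estimates lay above 0, NAP1L1 among them at 0.76 ± 0.41 (edgeR adjusted p = 0.154). In this comparison 21.8% of 15514 genes were called higher and 14.8% lower. EEF2 was the only member called in the moderate pool (1 of 9 lower; 3.62% of genes lower, 0.187% higher) and in the light pool (1 of 9 lower; 11.7% lower, 2.84% higher). Without scaling for composition, that is on library size alone, both heavy calls were lost, with EEF1A1 at 0.76 and EEF2 at 0.86. That choice moved the median of all genes in this comparison from 0.05 to -0.37, and the share of lower genes among those called from 40.4% to 83.0%.

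In shDAP5 cells the enrichment in heavy polysomes was smaller. A moderate pool was sequenced from shNSi cells alone, and whether both heavy pools hold the same part of the gradient was not tested. With the shNSi moderate pool in place of heavy, genes called in heavy polysome mRNA went from 2390 lower and 2024 higher to 24 and 26. In heavy translation efficiency they went from 1266 and 746 to 0, and also to 0 with the shNSi pools summed. EEF2 was at 1614 and 1351 CPM in shDAP5 heavy polysomes, level with its total mRNA, and every one of these values lay below both shNSi heavy values. EEF1A1 was at 7594 and 7265 CPM, again below both shNSi heavy libraries, and above its own total mRNA in both cultures. In shDAP5 light polysomes EEF2 was at 669 and 475 CPM and EEF1A1 at 4185 and 2249 CPM, which overlapped the shNSi light values.

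Between the cell lines, EEF2 was the 1 member of 9 that was called in heavy polysomes, where it fell by 1.55 on the log2 scale (SE 0.39, edgeR adjusted p = 0.00126); 16.7% of 14270 genes were called lower and 14.2% higher. The EEF2 call held in 9 of 14 alternative analyses; it was lost without shNSi culture 2 (-1.15), without shDAP5 culture 2 (-1.45), with an offset for coding length (-0.95) and with the shNSi heavy and moderate pools summed (-0.67), and the value turned to 1.12 against the moderate pool. On library size alone the median of all genes moved from 0.09 to 0.34, and the share of lower genes among those called from 54.1% to 31.3%. Translation efficiency, the polysome value of an mRNA relative to its total mRNA, was compared as the interaction of fraction and hairpin. The EEF2 log2 ratio of heavy polysomes to total was 1.13 and 1.65 in the shNSi cultures and 0.09 and -0.25 in the shDAP5 cultures. Its heavy translation efficiency fell by 1.33 (log2, SE 0.40, edgeR adjusted p = 0.0252), and EEF2 was again the only member called, 1 of 9 lower, against 8.23% of 15374 genes lower and 4.85% higher. Over 15 alternative analyses its change ranged from -1.63 to 1.43, with adjusted p from 0.000156 to 1 and the call held in 5; limma, nearest to the procedure of the study, did not call it (-0.77, adjusted p = 0.138), and leaving out shNSi culture 1 (-1.63), shNSi culture 2 (-1.06) or shDAP5 culture 2 (-1.19) ended it, and the value of 1.43 arose when the shNSi moderate pool stood in for the heavy pool.

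EEF1A1 gave log2 ratios of 1.27 and 1.28 in shNSi heavy polysomes and of 0.26 and 0.43 in shDAP5 heavy polysomes, 2 ranges that did not overlap. With 2 cultures a group, ranges that do not overlap are weak evidence, for this and every other member. The share of all genes with such ranges was not counted. In heavy translation efficiency 4564 of 15374 genes had an unadjusted p under 0.05 (edgeR). The fitted change of EEF1A1 was -0.90 ± 0.40 in heavy polysomes (edgeR adjusted p = 0.0707). It was -0.78 ± 0.43 in heavy translation efficiency (edgeR adjusted p = 0.214), and neither passed. DESeq2 called both, at -0.98 (adjusted p = 0.00536) and -0.85 (adjusted p = 0.0398), the 1 alternative of 14 and of 15 that did, and against the shNSi moderate pool the values turned to 0.36 and 0.68.

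The eEF1B subunits. EEF1B2 and EEF1D encode subunits of the factor that recharges eEF1A with GTP. In control cells EEF1B2 was at 521 and 374 CPM in heavy polysomes, the lowest pool of each culture, and at 982 and 896 CPM in the moderate pool. Its heavy pool differed from total mRNA by -0.56 ± 0.36 (edgeR adjusted p = 0.234), which did not pass. In shDAP5 heavy polysomes it was at 580 and 848 CPM, above both shNSi heavy values. Its log2 ratio to total was -0.13 and -0.83 in shNSi heavy polysomes and 0.00 and 0.54 in shDAP5 heavy polysomes. The change in heavy translation efficiency was 0.90 ± 0.37 (edgeR adjusted p = 0.0952), short of the threshold, and in heavy polysome mRNA 0.86 ± 0.37 (edgeR adjusted p = 0.0627). Limma on quantile-normalized values, the procedure nearest to that of the study, called both higher, at 1.23 (adjusted p = 0.0497) and 1.26 (adjusted p = 0.00392). They passed in 3 of 15 and 2 of 14 alternatives, and turned to -0.35 and -0.39 against the shNSi moderate pool.

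EEF1D was at 844 and 816 CPM in shNSi heavy polysomes and at 758 and 1234 CPM in shDAP5 heavy polysomes, which overlapped. Its change in heavy translation efficiency was 0.49 ± 0.38 (edgeR adjusted p = 0.406). The shNSi moderate pool held the highest value of this mRNA, 1666 CPM in culture 2 beside 821 CPM in culture 1. An unstranded count could include reads of opposite-strand genes, which cover 31.2% of its exonic bases in the case of AC067930.6, and the strand setting of the counting is not described in the sources used here.

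Ratios of raw counts within a library do not depend on any scaling between libraries. EEF1A1 had 30.0 and 42.4 reads for each EEF1B2 read in shNSi heavy polysomes, and 13.1 and 8.56 in shDAP5 heavy polysomes. In total mRNA the ratio was 11.4 and 9.80 in shNSi cells and 11.0 and 9.24 in shDAP5 cells. The EEF2 to EEF1B2 ratio was 6.97 and 16.7 in shNSi heavy polysomes against 2.78 and 1.59 in shDAP5 heavy polysomes, and 2.91 and 2.98 against 2.62 and 2.77 in total mRNA. In both ratios the heavy pools of the cell lines did not overlap. The shNSi moderate pool was lower, at 3.0 and 9.78 for EEF1A1 over EEF1B2 and at 0.409 and 1.09 for EEF2 over EEF1B2, so that the shDAP5 heavy values lay above both moderate values for EEF2 and overlapped them for EEF1A1. These ratios were chosen after the values were seen and carry no test.

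**Figure D2:**
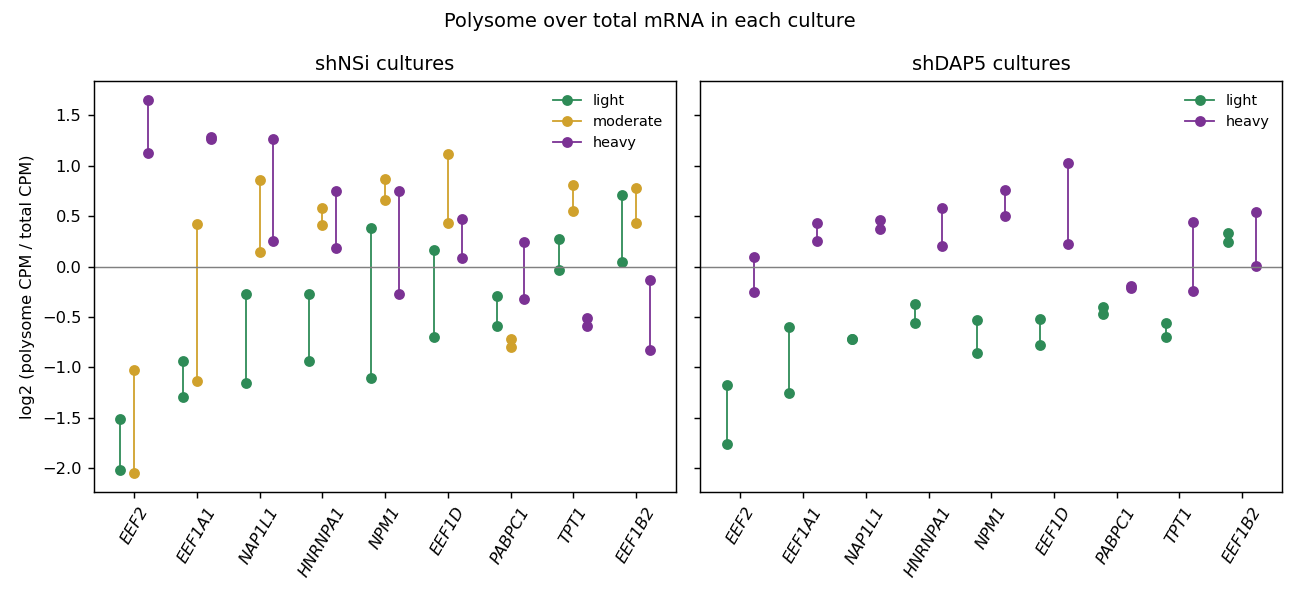
Log2 ratio of polysome to total CPM for each member, with shNSi cultures on the left and shDAP5 cultures on the right; points are cultures, a line joins the 2 cultures of a pool, and colour gives the pool. EEF2 and EEF1A1 are above 1 in shNSi heavy polysomes and between -0.25 and 0.43 in shDAP5 heavy polysomes, while TPT1 and EEF1B2 are below 0 in shNSi heavy polysomes.

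TPT1 and PABPC1. TPT1 encodes TCTP, a small growth-related protein that is a classical product of a TOP mRNA. In shNSi cells it was at 2092 and 2521 CPM in the moderate pool, at 1391 and 1745 CPM in the light pool and at 950 and 1011 CPM in the heavy pool, so that the heavy pool was the poorest in both cultures. In shDAP5 cells the order was turned: 1182 and 1484 CPM in heavy polysomes and 952 and 676 CPM in light polysomes. Each shDAP5 heavy value lay above, and each shDAP5 light value below, both shNSi values of that pool. The changes were 0.63 ± 0.38 in heavy polysome mRNA (edgeR adjusted p = 0.193), -0.95 ± 0.34 in light polysome mRNA (edgeR adjusted p = 0.536) and 0.80 ± 0.39 in heavy translation efficiency (edgeR adjusted p = 0.158), none past the threshold. Limma on quantile-normalized values called the heavy changes, at 0.91 (adjusted p = 0.0202) in heavy polysome mRNA and at 1.19 (adjusted p = 0.0447) in heavy translation efficiency. The first passed in 1 of 14 alternatives and the second in 3 of 15; in heavy polysome mRNA the value turned to -0.78 against the shNSi moderate pool and to -0.19 with an offset for coding length. The shift from light to heavy polysomes, tested as the interaction of these pools with the hairpin, was 1.49 ± 0.57 (edgeR adjusted p = 0.103); DESeq2 called it, at 1.45 (adjusted p = 0.0128).

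PABPC1 encodes the protein that coats the poly(A) tail and joins it to the initiation complex. It was below its total mRNA in 9 of 10 polysome libraries, against at most 7 for any other counted member. It was at 1348 and 1597 CPM in shNSi heavy polysomes and at 988 and 1198 CPM in shDAP5 heavy polysomes, beside 1683 and 1352 CPM and 1129 and 1386 CPM in total mRNA. The heavy values of the cell lines did not overlap, whereas the heavy to total ratio, -0.32 and 0.24 against -0.19 and -0.21, did. Its heavy translation efficiency changed by -0.02 ± 0.38 (edgeR adjusted p = 0.983).

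NPM1, HNRNPA1 and NAP1L1. These mRNAs encode a nucleolar chaperone of ribosome assembly, an hnRNP protein that controls splicing, and a histone chaperone. All 3 varied together over the libraries: Pearson correlations of log2 CPM over the 14 libraries were 0.94 for HNRNPA1 with NAP1L1, 0.90 for NPM1 with HNRNPA1 and 0.87 for NPM1 with NAP1L1, across libraries that share cultures and pools. NPM1 was at 3222 and 1739 CPM in shNSi heavy polysomes and at 2662 and 3672 CPM in shDAP5 heavy polysomes. HNRNPA1 was at 1755 and 1589 CPM against 1294 and 1841 CPM, and NAP1L1 at 1709 and 892 CPM against 925 and 1105 CPM. In each the cell lines overlapped, and for NPM1 and NAP1L1 the shNSi cultures lay further apart than the shDAP5 cultures. The heavy translation efficiency changed by 0.54 ± 0.41 for NPM1 (edgeR adjusted p = 0.390), by 0.07 ± 0.39 for HNRNPA1 (edgeR adjusted p = 0.925) and by -0.20 ± 0.39 for NAP1L1 (edgeR adjusted p = 0.768).

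Light polysomes. No member was called in light polysome mRNA or in light translation efficiency with edgeR (0 of 9 in each), and 0% of 15529 and 0% of 15967 genes were called; 1330 and 833 genes had an unadjusted p under 0.05, and DESeq2 and limma called 0 members in either. Changes in light polysome mRNA ran from -0.95 ± 0.34 for TPT1 to 0.08 ± 0.39 for EEF1A1, and in light translation efficiency from -0.75 ± 0.32 for TPT1 to 0.29 ± 0.35 for EEF2. NPM1, at 893 and 2731 CPM in shNSi and 1040 and 1494 CPM in shDAP5 light polysomes, changed by -0.53 ± 0.50 (edgeR adjusted p = 0.767), and EEF1D, at 375 and 862 against 452 and 353 CPM, by -0.63 ± 0.42 (edgeR adjusted p = 0.673). In light polysome mRNA and in light translation efficiency, leaving out shNSi culture 1 made TPT1, NPM1 and EEF1D pass as lower, 3 of 9, while the share of all genes called lower went from 0% to 16.3% and 7.51%. That fit has 1 control culture, which is assumed to vary like the shDAP5 cultures. Leaving out shNSi culture 2 instead gave 0.50 for NPM1, 0.10 for EEF1D and -0.78 for TPT1 in light polysome mRNA. In light translation efficiency it gave 0.37 for NPM1 and 0.0063 for EEF1D, while TPT1 stayed below 0 whichever culture was left out (-0.90 to -0.62). Against the shNSi moderate pool, which shares its code with the shDAP5 light libraries, the same 3 members passed in light polysome mRNA, at -1.50 for TPT1 (edgeR adjusted p = 0.0257), -1.43 for NPM1 (edgeR adjusted p = 0.0315) and -1.62 for EEF1D (edgeR adjusted p = 0.0303), where 13% of 15431 genes were called lower and 12.6% higher.

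Within shDAP5 cells, 0 of 9 members differed between heavy polysomes and total mRNA, where 1.08% of 15619 genes were called and 2501 had an unadjusted p under 0.05; DESeq2 called 0 members as well. The median member stood at 0.30 and the median gene at -0.02. In shDAP5 light polysomes 2 members were lower than in total mRNA, EEF2 by -1.50 ± 0.26 (edgeR adjusted p = 0.00248) and NAP1L1 by -0.74 ± 0.22 (edgeR adjusted p = 0.0270), against 19.2% of genes lower and 13% higher. EEF1A1 (-0.94 ± 0.33, edgeR adjusted p = 0.0504) and NPM1 (-0.72 ± 0.26, edgeR adjusted p = 0.0549) lay just outside the threshold. EEF2 was thus depleted from light polysomes relative to total mRNA in each cell line, at log2 ratios of -2.02 and -1.51 in the shNSi cultures and of -1.18 and -1.76 in the shDAP5 cultures. In the shift from light to heavy polysomes between the cell lines, 0 of 9 members passed with edgeR. The background was 6.75% of 15878 genes, and 3985 had an unadjusted p under 0.05. DESeq2 called EEF2 lower (-1.71, adjusted p = 0.00111) and TPT1 higher, beside 9.05% of genes called lower and 3.33% higher.

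The 9 members thus spread to both sides in heavy translation efficiency, with 4 estimates below and 5 above 0. Their median was 0.07 and that of all 15374 genes 0.09. The ribosomal proteins, the largest group of TOP mRNAs, had called members on a single side: 47 of 79 rose and 0 fell, with estimates from -0.25 to 1.54 and a median of 1.14, beside 4.85% of all genes called higher and 8.23% lower. They are short, with 57 of 79 coding sequences of up to 600 bases, a class whose median over all genes was 0.83. The highest of those called were RPLP2 (1.54 ± 0.39), a protein of the ribosomal stalk, RPS20 (1.50 ± 0.38) and RPL35A (1.49 ± 0.38), each above every counted member. Whether the members and the ribosomal proteins differ was not tested.

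Of 17 other TOP candidates, 2 rose, the prefoldin subunit PFDN5 (1.25 ± 0.36) and the nucleotide hydrolase HINT1 (1.26 ± 0.36), and 2 fell, the import receptor IPO7 (-1.74 ± 0.38) and the chaperone HSPA8 (-1.19 ± 0.41), around a median of 0.05. Of 12 other elongation and termination factors, 2 fell, the mitochondrial elongation factor GFM1 (-1.21 ± 0.35) and the ribosome recycling factor ABCE1 (-1.11 ± 0.35), and 0 rose. Of 14 tested paralogs of the members, 1 rose, NPM3 (1.46 ± 0.34), a relative of NPM1. All these changes are log2 values of heavy translation efficiency with an edgeR adjusted p under 0.05, and the counts of 1 or 2 in these short lists stand beside 8.23% of all genes called lower and 4.85% called higher.

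**Figure D3:**
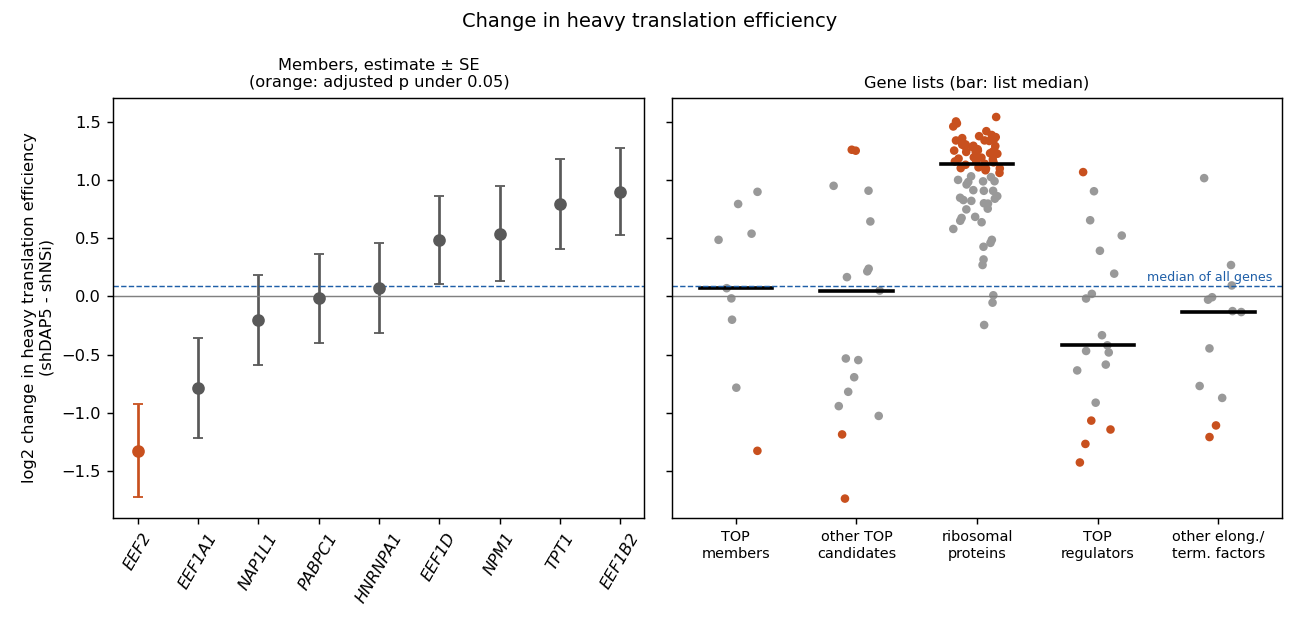
Log2 change in heavy translation efficiency (shDAP5 minus shNSi). On the left are the 9 counted members with their SE, and on the right every tested gene of 5 lists with the list median as a bar; orange marks an edgeR adjusted p under 0.05 and the dashed line is the median of all genes, 0.09. EEF2 is the only orange member, and the ribosomal proteins lie mostly above 0.

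Among 19 regulators of TOP mRNAs, 4 fell in heavy translation efficiency and 1 rose, where 8.23% of all genes were called lower and 4.85% higher. The kinase MTOR, which signals to TOP mRNAs, fell by 1.43 (SE 0.35, edgeR adjusted p = 0.00983). Its mRNA was at 123 and 216 CPM in shNSi heavy polysomes and at 55 and 38 CPM in shDAP5 heavy polysomes, beside 79 and 78 CPM and 60 and 72 CPM in total mRNA. The scaffold EIF4G1 (-1.27 ± 0.39) and the poly(A)-associated protein LARP4 (-1.14 ± 0.37) fell as well, and the eIF4E inhibitor EIF4EBP1 rose (1.07 ± 0.34). LARP1, which binds the TOP tract itself, was at 573 and 770 CPM in shNSi and 303 and 278 CPM in shDAP5 heavy polysomes. It fell by 1.02 (SE 0.37, edgeR adjusted p = 0.0235) in heavy polysome mRNA, and its heavy translation efficiency changed by -0.64 ± 0.36 (edgeR adjusted p = 0.227). CNBP, a zinc finger protein that binds TOP mRNAs, changed by 0.66 ± 0.35 (edgeR adjusted p = 0.202). These are mRNA values and say nothing of the activity of the proteins. The calls in heavy translation efficiency, here and in the lists above, rest on 1 setting of the fit. On library size alone, or without a term for each culture, 0 genes were called in that comparison. The count was also 0 with the shNSi moderate pool in place of heavy or with both pools summed. The part of coding length in the calls of the regulators was not tested.

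The length of the coding sequence moved with these changes. Over 12485 genes with a length, the change in heavy translation efficiency and coding length had a Spearman correlation of -0.71, and the median change went from 0.83 in genes of up to 600 bases to -0.83 in genes over 2700 bases; genes are not independent replicates, and no p is given. TPT1, the shortest member at 516 bases, had a change of 0.80, near its class. NPM1, at 882 bases, stood at 0.54 where genes of 601 to 900 bases had a median of 0.55, and HNRNPA1, at 960 bases, at 0.07 beside a median of 0.22. These 3 members lay between the quartiles of genes of their length.

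EEF2, at 2574 bases, stood at -1.33 where genes of 1801 to 2700 bases had a median of -0.45 and a lower quartile of -0.87. EEF1A1, at 1386 bases, stood at -0.78 beside a median of -0.12 and a lower quartile of -0.50 in its class of 1201 to 1800 bases. Both elongation GTPases thus lay below the lower quartile of their length class, as did NAP1L1 at -0.20 (lower quartile -0.07). NAP1L1 has 1173 bases, near the end of its class at 1200, and the next class had a lower quartile of -0.50. EEF2 is near the long end of its class, and genes over 2700 bases had a median of -0.83 and a lower quartile of -1.20. PABPC1, at 1908 bases, stood at -0.02, above the median of the 1801 to 2700 base class. EEF1B2, at 675 bases, lay above the upper quartile of its class (0.90 against 0.80), and below that of genes of up to 600 bases (1.11). EEF1D lay above the upper quartile of its class at 1941 bases, and near the median of 0.55 if the frequent coding sequence of 843 bases is the one expressed. With an offset for coding length in every library, the EEF2 change was -0.77 (edgeR adjusted p = 0.0876) in heavy translation efficiency and -0.95 (edgeR adjusted p = 0.0532) in heavy polysome mRNA, and neither call held.

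**Figure D4:**
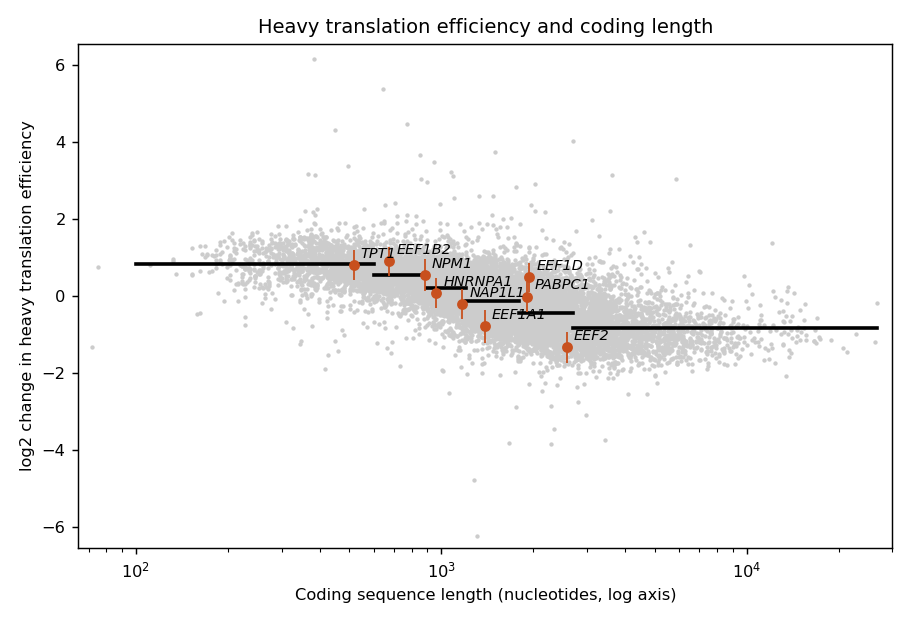
Log2 change in heavy translation efficiency (y axis) against coding sequence length in nucleotides (x axis, log scale) for 12485 genes in grey. Black bars are medians of 6 length classes and orange points are the 9 counted members with their SE; EEF2 and EEF1A1 lie below the bars at their length, and TPT1 and NPM1 lie on them.

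The members did not share a profile over the 14 libraries. Of 36 pairs, 7 had a Pearson correlation of log2 CPM above 0.8 and 9 had one below 0. EEF1A1 and EEF2 went together (0.92), EEF1D went with HNRNPA1 (0.89) and NPM1 (0.88), and EEF1B2 and EEF2 were the most opposed pair (-0.71). Libraries of the same pool and culture are not independent, so these are descriptions. Of 9383 other genes with at least 10 CPM on average, those closest to the mean profile of the members were the proteasome subunit PSMD3 (0.99), the actin ACTG1 (0.99), the splicing factors LUC7L (0.99) and PRPF19 (0.99), and the initiation factor subunit EIF2B3 (0.99).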

How the data were processed

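RNA-seq of 14 MDA-MB-231 libraries was analysed from gene counts. The authors sequenced single reads on an Illumina HiSeq instrument, and their processing notes name STAR 2.6.0a, limma and the genome build hg19; the deposited table holds raw counts per gene symbol, without coordinates. The name of the table points to featureCounts, and the settings of the counting are not given in the sources used here. All count columns were matched to samples by their names.

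Symbols without reads in any library (27761 of 58434) were kept out by the filters. Counts were filtered (filterByExpr), scaled by the trimmed mean of M-values and fitted with edgeR 4.0.16, using its quasi-likelihood F-test (R 4.3.3), and p-values were adjusted over all genes tested (Benjamini-Hochberg, threshold 0.05). For translation efficiency the model held the interaction between hairpin and fraction with a term for each culture; pools were compared with total mRNA within a cell line with a term for culture. Printed CPM used factors over all 14 libraries. DESeq2 1.42.0 and limma 3.58.1 (log2 of CPM plus 1, as the authors normalized total and polysome libraries separately) were alternatives, and the script was tested on simulated data. With 2 cultures a group, an exact permutation test cannot go below p = 0.333, and the p-values measure the spread between these cultures. Fractions are shares of each library, so less RNA in a pool cannot be seen.

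The members and all gene lists were chosen with earlier results of these data known. Named were the members, EIF4G2, LARP1, CNBP and MTOR, up to 3 lowest and 3 highest genes called in heavy translation efficiency in each list, and the 5 genes most like the members; of the ribosomal proteins only the highest are printed because none was called lower. Reference windows and lengths came from GRCh38 (RefSeq, GENCODE v29), not from hg19.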

Additional observations from a re-analysis of the deposited data

Results flagged for a closer look

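EEF2 was singled out because its contrast of heavy polysomes with total mRNA differed between the cell lines by the test of the interaction, -1.33 on the log2 scale (SE 0.40, edgeR adjusted p = 0.0252), with both shDAP5 cultures below both shNSi cultures. How many of all genes separate the cultures in this way was not counted. Groups held 2 cultures each, too few for a search for single outlying libraries.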

How the results depend on the processing

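The number of members called depended on the settings. In heavy translation efficiency, 1 in the report, it was 2 with DESeq2 (EEF2 and EEF1A1, lower), beside 9.99% of genes lower and 3.84% higher. It was 2 with limma (EEF1B2 and TPT1, higher, without EEF2), beside 1.62% lower and 2.15% higher. With the coding length offset it was 0 (2.56% lower, 1.75% higher). It was 0 on library size alone (0 genes called in all, 4599 with an unadjusted p under 0.05). Without a term for each culture, or with the shNSi moderate pool in place of heavy, it was 0. The same held with both pools summed, and in these 3 settings 0 genes were called in all. In heavy polysome mRNA, also 1, it was 2 with DESeq2 (17.9% of genes lower, 10.4% higher) and on library size alone (7.98% and 17.5%). It was 3 with limma (14.8% and 13.4%) and 0 with the coding length offset (7.14% and 4.81%). It was 0 with the moderate pool (0.165% and 0.179%) or the summed pools (2.22% and 0.553%). In light polysome mRNA it went from 0 to 3 against the moderate pool (13% of genes lower, 12.6% higher). In light translation efficiency it went from 0 to 4 there (13.8% lower, 13.8% higher). In shNSi heavy over total, 2 in the report, it was 3 with DESeq2, which added TPT1 as lower (13.5% of genes lower, 24% higher). On library size alone it was 1, TPT1 as lower (28.1% and 5.76%). With DESeq2 it was 3 in shNSi moderate over total (5.76% and 3.28%) and 2 in shNSi light over total (13.6% and 6.9%). In shDAP5 light over total it was 6 with DESeq2 (19.1% and 11.9%) and 4 on library size alone (14.4% and 15.4%). Without the filter it was 6 there (12% and 7.68%). In the shift from light to heavy polysomes it was 2 with DESeq2 (9.05% of genes lower, 3.33% higher) and 1 on library size alone (4.04% and 6.27%). Adding pseudogene counts changed no count of members called. The coding length offset was void in light translation efficiency, because under 80% of its genes had a length. Leaving out a culture was not run within a cell line, where 1 culture would leave no residual degrees of freedom. The cause of these differences was not tested.

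Over all comparisons the sign turned in 93 of 801 values of the counted members under alternatives, and against the moderate pool also for values far from 0, the EEF2 call included. With the shNSi moderate pool in place of heavy, heavy polysome mRNA was 0.36 for EEF1A1, -0.39 for EEF1B2, -0.31 for EEF1D, 1.12 for EEF2, -0.14 for HNRNPA1, -0.10 for NPM1, 0.29 for PABPC1 and -0.78 for TPT1, and heavy translation efficiency 0.68, -0.35, -0.17, 1.43, -0.13, -0.15, 0.54 and -0.60 in the same order. With both pools summed, the first was -0.0040 for EEF1D, -0.0362 for HNRNPA1, 0.0211 for PABPC1 and -0.30 for TPT1, and the second 0.36 for PABPC1 and -0.0150 for TPT1. Against the moderate pool EEF1A1 was at -0.86 in light polysome mRNA. With the coding length offset, HNRNPA1 was at -0.24, PABPC1 at 0.12 and TPT1 at -0.19 in heavy polysome mRNA, and HNRNPA1 at -0.24 and PABPC1 at 0.33 in heavy translation efficiency. On library size alone NAP1L1 was at 0.0452 in heavy polysome mRNA and at 0.0142 in heavy translation efficiency, PABPC1 at 0.20 there and at 0.17 in the shift, HNRNPA1 at 0.12 in the shift, TPT1 at -0.0435 in shDAP5 heavy over total, and EEF1D at -0.20, HNRNPA1 at -0.0163 and NPM1 at -0.16 in shNSi heavy over total. With limma NAP1L1 was at 0.17 in heavy polysome mRNA and at 0.0005 in heavy translation efficiency, and PABPC1 at 0.23 there. With all 14 libraries in 1 fit HNRNPA1 was at -0.0927 in heavy polysome mRNA. Leaving out each culture in turn gave ranges across 0 for NAP1L1 in total mRNA (-0.0039 to 0.15), heavy polysome mRNA (-0.60 to 0.28) and heavy translation efficiency (-0.71 to 0.27), for HNRNPA1 in heavy polysome mRNA (-0.22 to 0.28) and heavy translation efficiency (-0.21 to 0.31), and for PABPC1 in heavy translation efficiency (-0.33 to 0.27). In light polysome mRNA they were -0.44 to 0.46 for EEF1A1, -1.12 to 0.10 for EEF1D and -1.13 to 0.50 for NPM1, and in light translation efficiency -0.82 to 0.0063 for EEF1D, -1.07 to 0.37 for NPM1 and -0.0224 to 0.58 for EEF2. Over all 9 counted members, the range lay across 0 for 5 in total mRNA, for 7 in light polysome mRNA and for 8 in light translation efficiency.

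Over all genes, the calls in heavy translation efficiency were 1266 lower and 746 higher in the report, 1536 and 591 with DESeq2, 249 and 330 with limma, 319 and 218 with the coding length offset and 0 without a term for each culture. The share of lower calls also moved with DESeq2 from 62.9% to 72.2% there, from 95.1% to 63.7% in shNSi moderate over total and from 80.5% to 66.4% in shNSi light over total, and on library size alone from 59.6% to 48.4% in shDAP5 light over total; library size moved the median of all genes in heavy translation efficiency from 0.09 to 0.30. The labels give both cell lines replicates 1 and 2. Deviations from the group means of samples with the same number correlated at -0.09 in total, 0.04 in heavy and 0.03 in light libraries. In heavy over total they correlated at -0.13. With 2 cultures a group, these values cannot decide whether cultures of the same number were handled together. With the number as a block the members called in heavy translation efficiency went from 1 to 0 (519 genes lower and 169 higher, EEF2 at -1.33, edgeR adjusted p = 0.124), and with the numbers crossed, a fit added after seeing the data, the count was 3 (2375 genes lower and 1758 higher). The shift from light to heavy polysomes was added after seeing the data as well.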
